A study of Mus musculus with 1012 samples.

Results

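Sequential Live-seq profiling of the same macrophage before and after stimulation with bacterial lipopolysaccharide (LPS) gave 4 pairs of cytoplasmic biopsies, 8 of the 1012 libraries of the series. Members were the RAW264.7 libraries whose labels carry an extraction pair with both biopsies present. The first biopsy of each pair was labelled as not treated and the second as LPS treated. Cells 1 and 2 came from experimental batch 7, and cells 3 and 4 from batch 9_4. For cell 4 the order label of the LPS library reads 1 rather than 2, so that library was placed by its treatment label.

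Live-seq draws a part of the cytoplasm out of a living cell with a fluidic force microscopy probe and leaves the cell alive. The RNA of the biopsy is then amplified by an enhanced Smart-seq2 protocol and sequenced. All 8 libraries came from RAW-G9 cells, a mouse macrophage subline of RAW264.7 derived from 1 clone that carries mCherry under the control of the Tnf promoter and a fusion of a green fluorescent protein with Rela. At the first biopsy the cells had received no LPS, and the second biopsy was taken from the same cells 4 to 5 h after LPS was added. The LPS concentration is stated differently in the series design and in the methods, so none is given here. For comparison, the series holds biopsies of RAW-G9 cells that were sampled once, 98 without LPS (Mock) and 33 after LPS. It also holds conventional single-cell RNA-seq libraries of whole RAW-G9 cells, Mock and after LPS, from 3 batches. No time after LPS is given for the whole cells, so it may differ from that of the biopsies. No cell among the pairs was sampled again without LPS, so an effect of LPS and an effect of a repeated biopsy cannot be told apart. The labels name no separate cultures, and p-values measure only the spread between these cells and batches. A smaller biopsy and less RNA per cell also cannot be told apart.

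LPS is a component of the outer membrane of Gram-negative bacteria. It is handed by Cd14 to the receptor Tlr4, whose signal leads to degradation of the inhibitor IκBα, encoded by Nfkbia, and to entry of NF-κB into the nucleus. There NF-κB drives the genes of chemokines such as Ccl3, Ccl4 and Cxcl2, of the cytokine Tnf and of its own inhibitors, among them Nfkbia itself. Macrophages are known for a strong and rapid response of this kind that varies from cell to cell.

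The bases in front of the start sites of 4 genes are shown because these genes carry the results on chemokines and on the brake of NF-κB, and because NF-κB acts through short sites in such regions. The sequences are from RefSeq on GRCm38.p6, 5′ to 3′ in the direction of the gene, and capitals mark matches to GGGNNNTTCC on either strand, overlapping matches included.
Ccl3, the 120 bases before the start, chr11:83649379-83649498, minus strand: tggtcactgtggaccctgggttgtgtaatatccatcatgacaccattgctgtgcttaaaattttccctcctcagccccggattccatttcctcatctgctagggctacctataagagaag
Cxcl2, the 120 bases before the start, chr5:90903779-90903898, plus strand: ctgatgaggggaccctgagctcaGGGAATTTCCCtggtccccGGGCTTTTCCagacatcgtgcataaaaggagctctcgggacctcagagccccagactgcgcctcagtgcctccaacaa
Nfkbia, the 120 bases before the start, chr12:55492648-55492767, minus strand: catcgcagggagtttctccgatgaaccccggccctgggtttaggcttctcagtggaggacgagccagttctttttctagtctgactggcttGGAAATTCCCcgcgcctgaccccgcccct
Ccl9, the 120 bases before the start, chr11:83578637-83578756, minus strand: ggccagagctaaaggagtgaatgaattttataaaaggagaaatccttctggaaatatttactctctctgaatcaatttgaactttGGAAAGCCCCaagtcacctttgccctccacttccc
In the windows from 250 bases before to 50 bases after the RefSeq start, 13 of the 16 named genes looked up had an entry, and 3 of them, Cxcl2, Nfkbia and Ccl9, held a match. Such a match was present in 5.56% of the 32851 promoters of the reference. A match describes the letters and is not a measured binding site. A comparison of the share between groups of genes is void, because fewer than 80% of the genes at a higher level in all 4 cells had a promoter entry.

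The paired libraries held between 304546 and 846942 counts, of which between 122643 and 729803 were kept after ribosomal protein genes and the genes that dominate negative controls had been left out. The first biopsy of cell 2 stood apart from the other 7 libraries. It held 1069 genes with at least 1 count, against 2306, 4789 and 4061 in the first biopsies of cells 1, 3 and 4. Of its counts, 57.5% fell on the negative-control genes, against 14.7%, 26.2% and 22.05%. Mitochondrially encoded genes took 0.000985% of its counts, against 1.22%, 1.62% and 1.502%. Lyz2, which encodes the lysozyme of macrophages, had no count in it, and 2 of 14 macrophage identity genes (Tyrobp and Spi1) reached 2 counts, compared with 9, 11 and 11 in the others. Of 17 once-sampled Mock biopsies of batch 7, 1 held fewer genes and 1 had a larger share of negative-control counts. Results are therefore given with and without cell 2. Mesenchymal markers, which mark the other cell types of the series, had no count in 7 libraries and summed to 7.06 CPM, a unit of counts scaled to a common library total, in the second biopsy of cell 1.

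**Figure D1:**
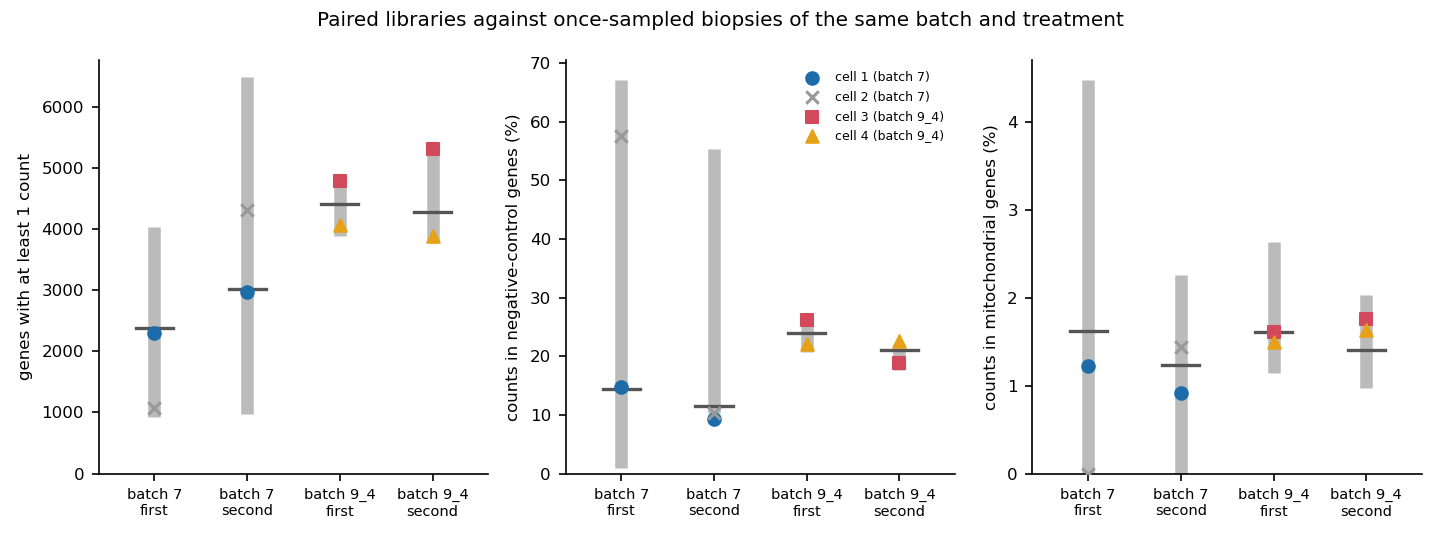
Genes with at least 1 count, share of counts in negative-control genes (%) and share in mitochondrial genes (%) for the 8 paired libraries (points), beside the range (grey bar) and median (dark line) of once-sampled biopsies of the same batch and treatment. The first biopsy of cell 2, with 1069 genes and 57.5% negative-control counts, lies apart from the other paired libraries.

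The chemokine genes Ccl3 and Ccl4, whose products recruit leukocytes, were near or at 0 in the first biopsy of most cells and high in the second biopsy of all 4. Ccl3 (ENSMUSG00000000982, chr11:83647844-83649355, minus strand) was at 0, 0, 80.3 and 111.6 CPM in the first biopsies of cells 1 to 4 and at 6432, 6492, 5951 and 15331 CPM in the second. The lowest second biopsy lay far above the highest first one. Against a floor of 3 counts in the first library, the second level stood at 590 times the floor in cell 1 and 265.4 times in cell 2. That floor covers counting error only and not transcripts missed in sampling, so these values are no lower limits of the change. The ratios were 74.1 and 137 in cells 3 and 4. On the scale of log2(CPM + 10), the within-cell difference of Ccl3 averaged 7.92 ± 1.68 (SD, n = 4 cells), and 7.45 without cell 2.

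Ccl4 was at 0, 0, 461 and 20.9 CPM in the first biopsies and at 1684, 1240, 2181 and 6036 CPM in the second. The groups did not overlap, but cell 3 already carried Ccl4 before LPS and its ratio was 4.73, against 288 in cell 4. The within-cell difference of Ccl4 averaged 6.05 ± 2.57 on the log2(CPM + 10) scale (SD, n = 4 cells), and 5.74 without cell 2. Ccl9, another CC chemokine, was at 0, 0, 115 and 0 CPM before LPS and at 2975, 3704, 865 and 3588 CPM after it. For Ccl9, cell 3 had the highest first level and the lowest second one, and its ratio was 7.51. In cells 1, 2 and 4 the second level stood at 273, 151.4 and 514 times the floor of 3 counts. Cxcl2, a neutrophil attractant, had no count in any first biopsy and reached 1259, 866 and 970 CPM in the second biopsies of cells 1, 2 and 3, but stayed at 0 in cell 4. With counts in 3 of the 8 libraries, Cxcl2 was below the filter for testing. All 13 once-sampled LPS biopsies of batch 7 and all 8 of batch 9_4 held Cxcl2, at 107.1 CPM or more, and none of the 27 once-sampled Mock biopsies of batches 7 and 9_4 did. This did not extend to batch 6, which held no pair: the highest of its 8 once-sampled Mock biopsies had 4410 CPM of Cxcl2.

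Tnf, the cytokine whose promoter drives the reporter, was counted before LPS in cell 3 alone, at 53.6 CPM, and stood at 1304, 2107, 2693 and 1630 CPM after it. Its within-cell difference averaged 6.88 ± 1.02 on the log2(CPM + 10) scale (SD, n = 4 cells), with a smaller spread than that of the chemokines named above. The reporter followed the same order of states: mCherry had no count in any of the 4 first biopsies and 1654, 1058, 256 and 278 counts in the second, or 2337, 1450, 548 and 925 CPM. Tnf was highest in cell 3 and mCherry highest in cell 1, so the order of the cells was not shared between the gene and its reporter. EGFP was at 0 in all first biopsies, at 215, 166 and 141 CPM in the second biopsies of cells 1 to 3, and at 0 in that of cell 4. Rela, which encodes the p65 subunit of NF-κB, went from 0 in every first biopsy to 178, 511, 279 and 509 CPM, a count that can include the fusion transcript.

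Nfkbia was absent from the first biopsies of cells 1, 2 and 4 and stood at 715 CPM in that of cell 3. In the second biopsies it stood at 1310, 1289, 1645 and 4154 CPM. The groups did not overlap. The ratio was 2.30 in cell 3, and the second level of cell 4 stood at 595 times the floor of 3 counts. Cell 3 was thus the cell with counts of Ccl4, Ccl9, Tnf and Nfkbia together before LPS, and its library also had the most detected genes of the first biopsies.

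**Figure D2:**
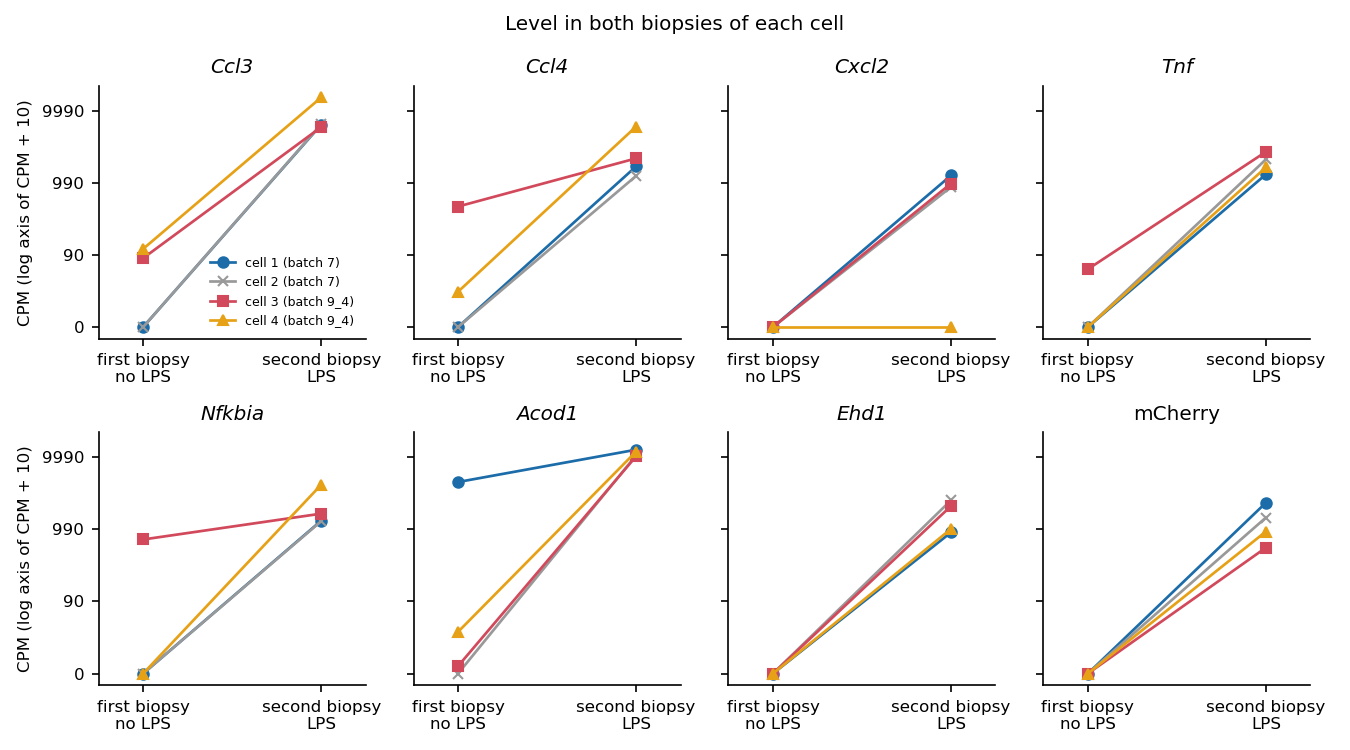
Level of 8 genes in the first (no LPS) and the second (LPS) biopsy, as CPM on a log axis of CPM + 10, with 1 line per cell. All lines end higher than they start, except that of Cxcl2 in cell 4, which was at 0 in both biopsies.

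Of the 2837 genes that reached 2 counts in 4 or more paired libraries, 4.09% were at least 2-fold higher in the second biopsy of all 4 cells and 14 genes (0.493%) were at least 2-fold lower. Without cell 2, 139 genes (4.90%) were higher and 82 (2.89%) lower in all 3 remaining cells. The filter itself admits genes through the group where they are high: 53 of the tested genes reached 2 counts in the second biopsies alone and 3 in the first biopsies alone. Of the genes higher in all 4 cells, 35 had no count in any first biopsy, 97.4% had none in the first biopsy of cell 2 (as had 2186 of all 2837 genes tested), and 0 reached 2 counts in all first biopsies. The median within-cell difference over all tested genes was 0.43 on the log2(CPM + 10) scale and 0.06 without cell 2. By cell, 916, 1702, 847 and 865 genes were at least 2-fold higher and 729, 372, 763 and 966 at least 2-fold lower, with medians of 0, 2.15, 0.02 and 0. Cell 2 thus supplied the shift of the whole distribution. Second and first biopsies did not overlap at all for 130 genes (4.58%) that were higher and 25 (0.881%) that were lower after LPS. Ccl3, Ccl4 and Nfkbia are among the former and Tacc3 is among the latter. With 4 libraries in each group, order alone gives some genes of this kind, so a lack of overlap is a description.

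Biopsies of the same cell shared part of their genes. Of the genes with at least 2 counts in the first biopsy, 44.99%, 57.6%, 65.1% and 50.2% were counted again in the second biopsy of the same cell, for cells 1 to 4, and 175 tested genes had at least 2 counts in all 8 libraries. Across the 2837 genes, Spearman's correlation between the levels in both biopsies was 0.109, 0.032, 0.395 and 0.212 for cells 1 to 4. Only the first biopsy of cell 3 correlated best with the second biopsy of its own cell. That of cell 1 had its highest value with the second biopsy of cell 3 (0.187), that of cell 2 with cell 4 (0.079) and that of cell 4 with cell 3 (0.362). These values are across genes and share library depth, which was not held equal.

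Summed per batch and tested over the 2 batches with edgeR's quasi-likelihood test, 0 of the 2837 genes (0%) passed a Benjamini-Hochberg adjusted p of 0.05, with 23 genes at an unadjusted p under 0.05 and 5.32% of the genes called by DESeq2. This fit leaves 1 residual degree of freedom. With each library as its own unit and the cell as a block, the same test called 2 genes (0.0705%), Acod1 and Ccl3, both higher after LPS, with log2 fold changes of 9.73 ± 1.69 and 9.47 ± 1.69 (SE). The same design called 0 genes with edgeR's newer fit, and Ccl3 alone without cell 2. That design treats the 4 cells of 1 clone as replicates, so its calls describe these cells and are no test of the condition, and no p-value is given from it. An exact two-sided sign-flip test over 4 pairs cannot reach 0.05 for any gene. Acod1 encodes the enzyme that makes itaconate.

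Acod1 stood at 4540, 0, 2.68 and 27.9 CPM before LPS and at 12762, 10648, 10333 and 12019 CPM after it. The second biopsies lay within a narrow range, whereas the first ones did not: cell 1 already carried Acod1, and its ratio was 2.81 against 431 in cell 4. Once-sampled Mock biopsies of batch 7 had a median of 200 CPM of Acod1 and a highest value of 13092 CPM, so the level before LPS in cell 1 lay within their range.

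Ehd1, which encodes a protein of endosomal recycling, showed a large difference, with a spread that reflects its second levels alone. It had no count in any first biopsy and stood at 898, 2527, 2099 and 1004 CPM in the second, a within-cell difference of 7.22 ± 0.74 on the log2(CPM + 10) scale (SD, n = 4 cells), 6.96 without cell 2. Like mCherry, Ehd1 passed the filter through the second biopsies alone, so its direction was fixed by it. Of the once-sampled biopsies, 0 of 17 Mock and 11 of 13 LPS libraries of batch 7 held at least 2 counts of Ehd1, and 1 of 10 and 8 of 8 in batch 9_4. Plek, which encodes the protein kinase C substrate pleckstrin, went from 0, 0, 0 and 384 CPM to 4198, 2702, 2553 and 1650 CPM. Ptgs2, the inducible cyclooxygenase of prostaglandin synthesis, had no count before LPS and 978, 981, 131 and 1028 CPM after it, cell 3 being the lowest.

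Ssr1, a subunit of the translocon-associated protein complex of the endoplasmic reticulum, went from 7.26, 0, 0 and 44.2 CPM to 879, 877, 987 and 2042 CPM. Its within-cell difference of 6.01 ± 0.66 on the log2(CPM + 10) scale (SD, n = 4 cells) had a smaller spread than that of Ehd1. In the once-sampled biopsies the same gene did not separate the treatments, with medians of 0 and 145.4 CPM in Mock and LPS libraries of batch 7 and of 552 and 465 CPM in batch 9_4. In whole cells the log2 fold change of Ssr1 was 0.05 ± 0.14 (SE, edgeR adjusted p = 0.87).

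**Figure D3:**
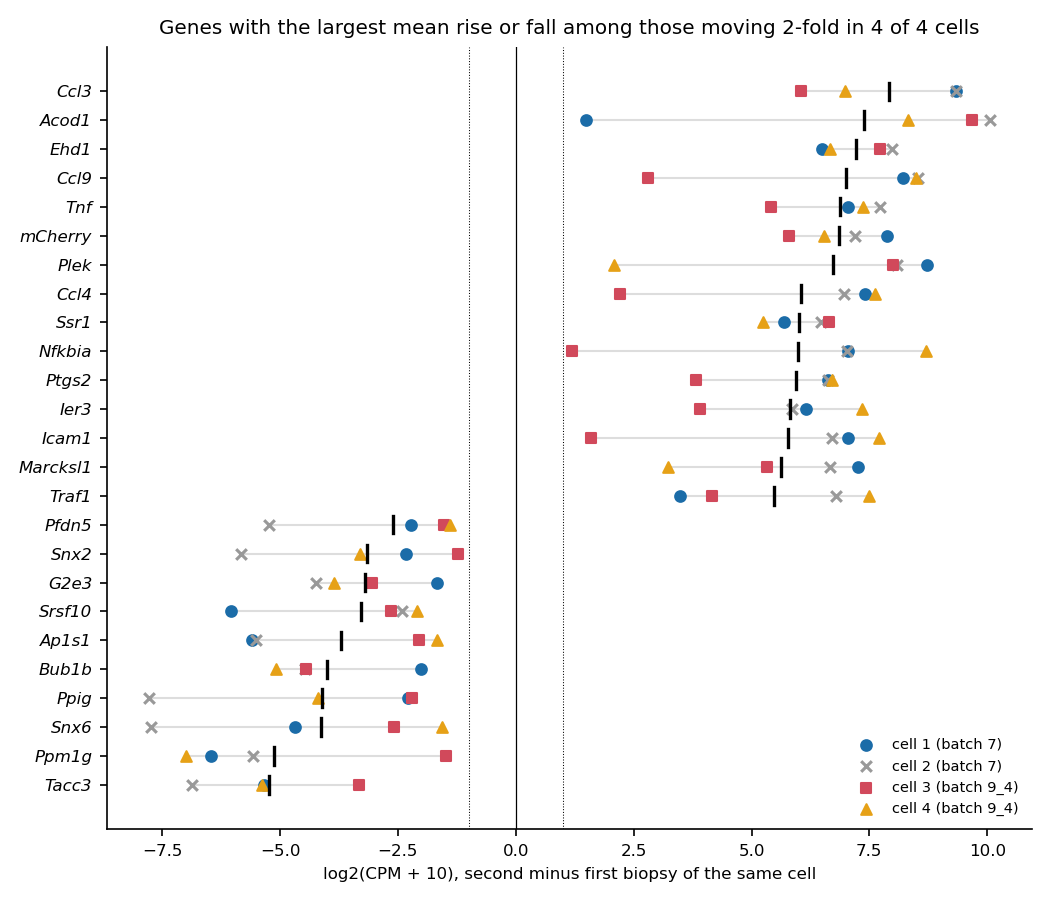
Within-cell difference in log2(CPM + 10), the second minus the first biopsy, for the genes with the largest mean among those at least 2-fold apart in all 4 cells, with 1 point per cell, a black tick at the mean and dotted lines at 2-fold. Ehd1 and Ssr1 have closely spaced points (SD 0.74 and 0.66), whereas Acod1 spreads with an SD of 4.00. Ehd1 had no count in any first biopsy, so its spread is that of its second levels alone.

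Genes were then read by their roles in the response, in lists that had been chosen with results of these data known, so that their direction is not independent evidence. Most list members were too sparse to be tested. Ccl9, Tnf, Nfkbia, Nfkb2, Tnip3, Icam1, Junb, Oasl1 and Arpc3 had counts before LPS in cell 3 alone. In the other first biopsies they were at 0 and could not fall, and they passed the filter mainly through the second biopsies. The shares of lists that hold such genes were thus partly fixed by the filter. Of 13 chemokines, 3 were tested and all 3 (Ccl3, Ccl4 and Ccl9) were at least 2-fold higher in all 4 cells, against 4.09% of all genes tested, with a median within-cell difference of 7.01 (6.51 without cell 2), against 0.43 (0.06) over all genes tested. The chemokine list summed to 0, 0, 656 and 133 CPM before LPS and to 13816, 13669, 10072 and 24959 CPM after it. Once-sampled LPS biopsies had medians of 13779 CPM in batch 7 and 17980 CPM in batch 9_4, and Mock biopsies 269 and 515 CPM.

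Of 27 NF-κB subunits, inhibitors and brakes, 12 were tested and 8 were at least 2-fold higher in all 4 cells, with or without cell 2, and none was lower, against 4.09% higher and 0.493% lower over all genes tested (4.90% and 2.89% without cell 2). These 8 were Nfkbia, Nfkbib, Nfkb2, Rela, Tnip3, Traf1, Ier3 and Icam1, and the median difference of the 12 tested members was 4.76 in both cases. Of them, Nfkbib, Rela, Traf1 and Ier3 had no count in any first biopsy. They passed the filter through the second biopsies alone, so their direction was fixed by it. Nfkbia, Nfkb2, Tnip3 and Icam1 were at 0 before LPS in all cells but cell 3, so they could fall there alone. Nfkb2, which encodes the p100 precursor, went from 0, 0, 26.8 and 0 CPM to 592, 837, 578 and 396 CPM. Icam1, an adhesion molecule, went from 0, 0, 378 and 0 to 1318, 1040, 1159 and 2085 CPM. Of the 4 other members tested, Nfkbiz and Tnip1 were higher after LPS in each cell but missed 2-fold in 1 cell each, cell 4 and cell 1. Rel stood at 502 CPM before and 0 after LPS in cell 4 and was higher after LPS in cells 1 to 3, and Relb was lower after LPS in cells 3 and 4.

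Of the receptors and early adaptors of LPS signalling, 2 of 20 were tested, and both were at least 2-fold higher in all 4 cells, against 4.09% of all genes tested. Cd14 went from 930, 0, 257 and 1209 CPM to 6107, 5686, 2755 and 2867 CPM. Tlr2, a receptor for bacterial lipoproteins, went from 0, 0, 2.68 and 130 CPM to 704, 259, 1013 and 642 CPM. Tlr4 itself was too sparse to be tested. Cd14 had been present in all first biopsies but that of cell 2. In the once-sampled LPS biopsies its median was 4935 CPM in batch 7 and 2124 CPM in batch 9_4, against 643 and 2218 CPM in Mock biopsies, so the batches differed in this gene.

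Among 16 immediate early and AP-1 factors, 3 were tested, and Junb and Atf3 were at least 2-fold higher in all 4 cells, against 4.09% of all genes tested. Junb went from 0, 0, 206 and 0 CPM to 1319, 580, 990 and 446 CPM, and Atf3 from 0 in every first biopsy to 547, 221, 141 and 535 CPM. Fos and Egr1, which are known to peak within the first hour, were not tested, and Fos had no count in any second biopsy. Among 16 interferon response genes, 4 were tested, and Oasl1 and Isg15 were at least 2-fold higher in all 4 cells, against the same 4.09%. Oasl1 reached 2249, 817, 850 and 439 CPM, whereas Isg15 had 83.3, 57.5, 12.9 and 13.3 CPM, levels near the pseudocount in cells 3 and 4. Isg15, like Atf3, had no count in any first biopsy. Both passed the filter through the second biopsies alone, so their direction was fixed by it. Junb and Oasl1 had counts before LPS in cell 3 alone, so they could fall there alone. The interferon list summed to 4564 and 3987 CPM in the second biopsies of batch 7 and to 1071 and 1417 CPM in those of batch 9_4. Once-sampled LPS biopsies had medians of 2705 and 1404 CPM in the same batches.

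Of 19 cytokines, 4 were tested and Tnf was the one that was at least 2-fold higher in all 4 cells, against 4.09% of all genes tested. The median of the 4 tested members was -0.27 on the log2(CPM + 10) scale. The whole list summed to 559, 889, 884 and 960 CPM before LPS and to 3611, 5902, 3534 and 2957 CPM after it, higher in each cell. Il1b, which encodes interleukin-1β, divided the cells by batch: it stood at 1379 and 1669 CPM after LPS in cells 1 and 2 and had no count in cells 3 and 4 or in any first biopsy. In the once-sampled LPS biopsies Il1b had at least 2 counts in 10 of 13 libraries of batch 7 and in 4 of 8 of batch 9_4, with medians of 1595 and 19.6 CPM. Il1a followed the same division, with 552 and 632 CPM in the second biopsies of cells 1 and 2 and none in the others. Saa3, an acute-phase protein, had 1890, 2081 and 1414 CPM after LPS in cells 1 to 3 and none in cell 4. Whether a gene absent from 1 biopsy was missed in sampling was not tested.

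**Figure D4:**
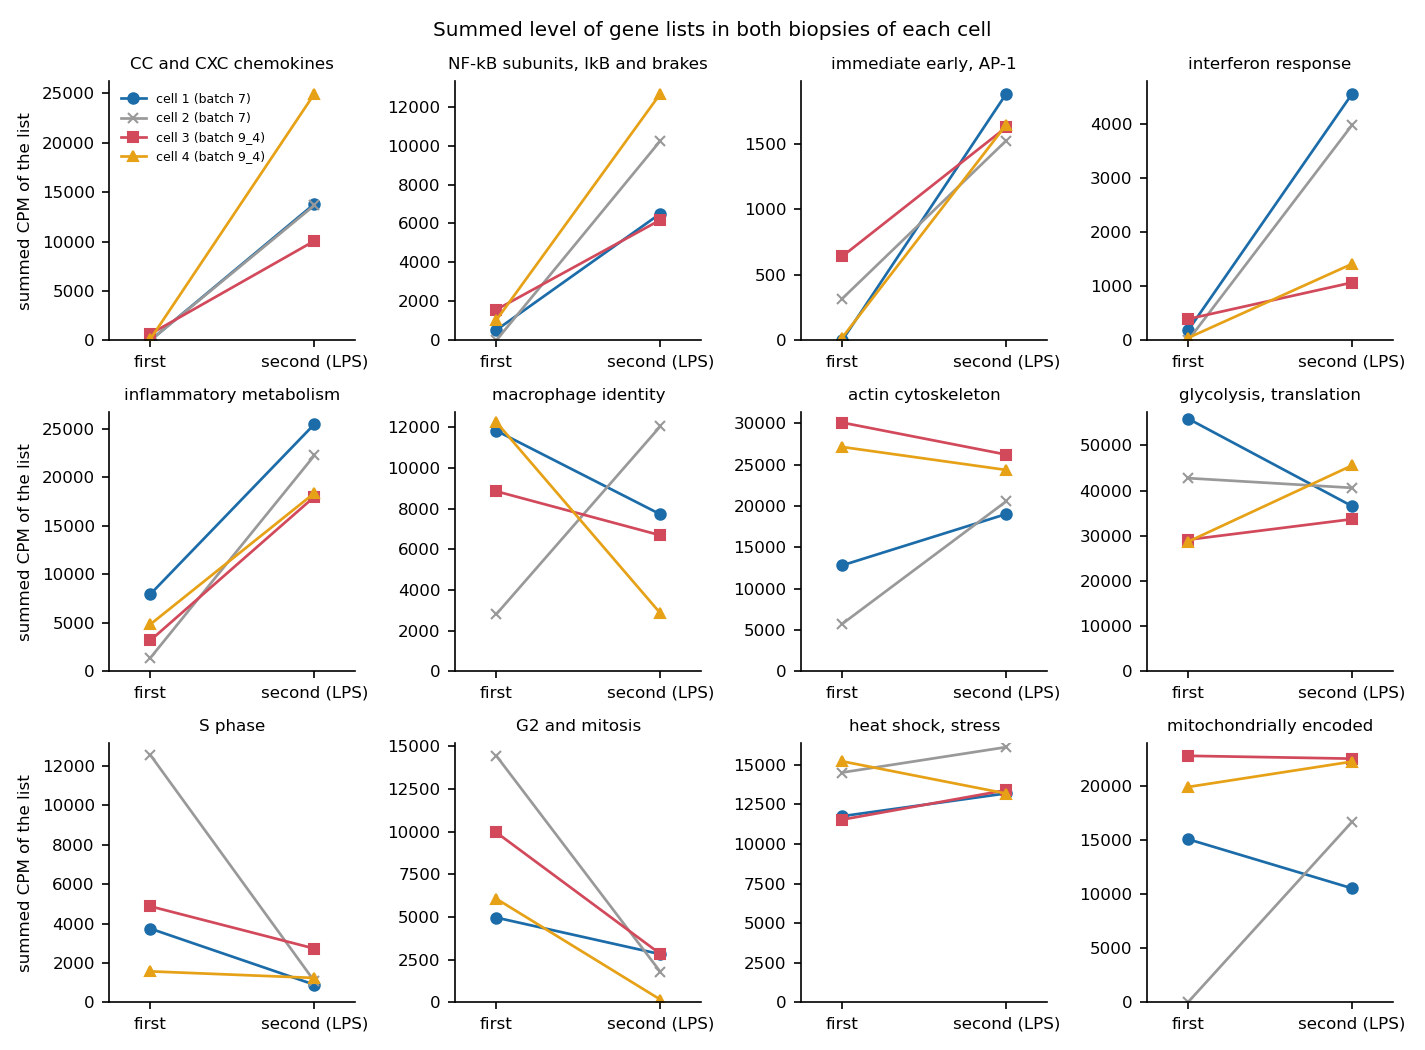
Summed CPM of gene lists in the first and the second (LPS) biopsy, with 1 line per cell and axes that start at 0. The chemokine and NF-κB lists end higher in all 4 cells, the G2 and mitosis list ends lower in all 4, and the macrophage identity list ends higher in cell 2 alone.

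In the opposite direction, Tacc3, Bub1b and G2e3 were among the 14 genes lower in all 4 cells. Tacc3, a spindle protein, went from 396, 1166, 822 and 409 CPM to 0, 0, 72.8 and 0 CPM, a within-cell difference of -5.23 ± 1.46 on the log2(CPM + 10) scale (SD, n = 4 cells), -4.69 without cell 2. The groups did not overlap. Bub1b, a kinase of the spindle checkpoint, went from 36.3, 1916, 209 and 328 CPM to 1.41, 76.7, 0 and 0 CPM. G2e3, named for its expression in G2 and mitosis, went from 21.8, 179, 72.3 and 135 CPM to 0 in all second biopsies. The other 11 were Ppm1g, Snx6, Ppig, Ap1s1, Srsf10, Snx2, Pfdn5, Mrps6, Ndufa12, Tsc22d4 and Gm15920. Ppm1g, a nuclear protein phosphatase, went from 1122, 465, 763 and 1272 CPM to 2.83, 0, 268 and 0 CPM.

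The list of 18 G2 and mitosis genes, which held none of these 14, summed to 4968, 14448, 9955 and 6071 CPM before LPS and to 2825, 1795, 2842 and 170 CPM after it. The sum was lower in the second biopsy of every cell and the groups did not overlap. In cell 2, Top2a at 10225 CPM and Mki67 made up most of the first sum. Members with at least 2 counts went from 8, 3, 17 and 15 before LPS to 7, 12, 12 and 1 after it, so they rose in cell 2. Of the 12 members tested, 0 were at least 2-fold lower in all 4 cells and 1 was in the 3 cells without cell 2. Over all genes tested these shares were 0.493% and 2.89%. Different genes carried the sum in different cells. Mki67, the proliferation marker, stood at 4101 CPM before LPS in cell 2 and at 0 in cell 1, while Cdc20, an activator of the anaphase-promoting complex, stood at 1278 and 1058 CPM in cells 3 and 4 and at 0 in cells 1 and 2. The median of the 12 tested members was -1.502 (-2.21 without cell 2). Once-sampled biopsies had medians of 6135 CPM (Mock) and 2893 CPM (LPS) in batch 7 and of 3406 and 1895 CPM in batch 9_4. In whole cells the medians were 3916 CPM (Mock) and 3286 CPM (LPS). There 0 of the 18 genes were called lower, against 2.32% of all genes, with a median log2 fold change of -0.19.

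The 17 S phase genes summed to 3748, 12565, 4880 and 1576 CPM before LPS and to 900, 1078, 2735 and 1244 CPM after it. The sum was lower in each cell, though cell 4 before LPS lay below cell 3 after it. In cell 2, Mcm5 at 10469 CPM made up most of the first sum. Members with at least 2 counts went from 6, 3, 10 and 6 before LPS to 3, 8, 13 and 5 after it. Of 7 members tested, none was at least 2-fold lower in all 4 cells, against 0.493% of all genes tested. The median of the 7 tested members was -0.65 (-0.14 without cell 2). In whole cells all 17 genes were tested and 9 were called lower, against 2.32% of all genes, with a median log2 fold change of -1.07. These medians cover unlike sets of genes. Mcm7, a subunit of the replicative helicase, was lower in cells 1, 3 and 4, from 54.5, 437 and 184 CPM to 0, 145.7 and 0 CPM, and went from 0 to 45.2 CPM in cell 2.

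In the lists of cell identity and upkeep, few genes moved in one direction in all 4 cells, as over all genes tested. Of 11 tested macrophage identity genes, 0 were at least 2-fold higher or lower in all 4 cells, against 4.09% and 0.493% of all genes tested. With shares this small, a count of 0 does not set the list apart. The list summed to 11843, 2813, 8862 and 12265 CPM before LPS and to 7731, 12057, 6698 and 2867 CPM after it, lower in cells 1, 3 and 4 and higher in cell 2, whose first biopsy was nearly devoid of these genes. Laptm5, a lysosomal membrane protein of blood cells, was the 1 member at least 2-fold lower in all 3 cells without cell 2, against 2.89% of all genes tested. It went from 1249, 1502 and 1616 CPM to 0, 521 and 190 CPM. Lyz2 stood at 3995, 0, 1910 and 5625 CPM before LPS and at 4037, 5902, 1442 and 0 CPM after it. The 4 cells thus took different courses for Lyz2, and cell 4 went from the highest first level to no count.

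Among 12 genes of glycolysis and translation, all of them tested, 0 were at least 2-fold apart in one direction in all 4 cells. Over all genes tested, 4.09% were higher and 0.493% lower, so a count of 0 does not set a short list apart. The median difference of this list was 0.06 (-0.03 without cell 2). Gapdh was at 3519, 3384, 3439 and 3441 CPM before LPS and at 2619, 2314, 2935 and 4816 CPM after it, a mean difference of -0.18 ± 0.46 on the log2(CPM + 10) scale (SD, n = 4 cells). The same limit holds for the lysosome list (13 tested), the heat shock list (8), the mitochondrially encoded list (7) and the nuclear-retained list (2). No member of them was at least 2-fold apart in one direction in all 4 cells. The medians of the tested members of these lists were 1.06, 0.51, 1.76 and 0.01 with cell 2 and 0.26, -0.03, -0.23 and -1.23 without it. Of 13 tested actin genes, Arpc3, a subunit of the Arp2/3 complex, and Marcksl1, an actin-binding protein, were at least 2-fold higher in all 4 cells. Of 10 tested genes of inflammatory metabolism, Acod1 and Ptgs2 were, and the share over all genes tested was 4.09%. Ptgs2 passed the filter through the second biopsies alone, so its direction was fixed by it. Sod2, the mitochondrial superoxide dismutase, was higher in each cell but by less than 2-fold in cell 4, from 0, 40.8, 356 and 291 CPM to 2195, 1204, 2071 and 572 CPM.

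In whole cells, summed per batch and fitted with the batch as a block over 3 batches, 344 of 10419 genes (3.30%) were higher and 242 (2.32%) lower after LPS at an edgeR adjusted p of 0.05 and a change over 2-fold. Of the 2837 genes tested in the pairs, 4.51% were called higher and 1.87% lower. Among the genes higher in all 4 paired cells, 39 (33.6% of them) were called higher in whole cells and 0 lower, and the same 39 were among the 139 without cell 2. Among the 14 lower genes, 0 were called lower in whole cells, although 12 had a negative fold change. Among the 82 genes lower in 3 cells without cell 2, 6 were called lower in whole cells, namely Fam111a, Gmnn, Ifi30, Laptm5, Mcm7 and Trem2. The count of 39 depended on the whole-cell batches: without batch 9_1 it was 8 (against 0.670% of all genes called higher), and without the batch as a block 16 (against 1.27%).

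The whole-cell log2 fold change was 4.81 ± 0.67 for Ccl3 (SE, edgeR adjusted p = 0.016), 4.11 ± 0.71 for Ccl4 (0.028), 3.50 ± 0.34 for Tnf (0.0065) and 2.28 ± 0.21 for Nfkbia (0.0061). For Acod1 it was 3.75 ± 0.64 (0.026), for Ehd1 3.51 ± 0.22 (0.0028) and for mCherry 4.64 ± 0.64 (0.015). Each of these was lower than the mean within-cell difference of the biopsies, which is on another scale and depends on the pseudocount. Among genes higher in all 4 paired cells, Rela (0.95 ± 0.25, edgeR adjusted p = 0.075), Atf3 (1.20 ± 0.32, 0.079) and Ier3 (2.98 ± 0.73, 0.065) were not called in whole cells. Tacc3 had a whole-cell log2 fold change of -0.50 ± 0.13 (edgeR adjusted p = 0.073) and Bub1b one of -0.29 ± 0.15 (0.29), sizes under 2-fold.

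Read the other way, 128 of the 344 genes called higher in whole cells were tested in the pairs. Of these, 96.1% had a positive mean within-cell difference, with a median of 2.62 (89.1% and 2.06 without cell 2). The median over all 2837 genes tested was 0.43 (0.06 without cell 2), and their share with a positive mean is not given here. Genes low before LPS passed the filter mainly through the second biopsies, so part of this direction was fixed by the filter. Of the 53 genes called lower, 73.6% had a negative mean, with a median of -0.78 (83.02% and -1.98 without cell 2), and 0 were at least 2-fold lower in all 4 cells. Across the 2837 genes, Pearson's r between the mean within-cell difference and the whole-cell fold change was 0.433 and Spearman's rho 0.336, and 0.395 and 0.313 without cell 2. Genes are not independent replicates, and the correlation is a description.

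**Figure D5:**
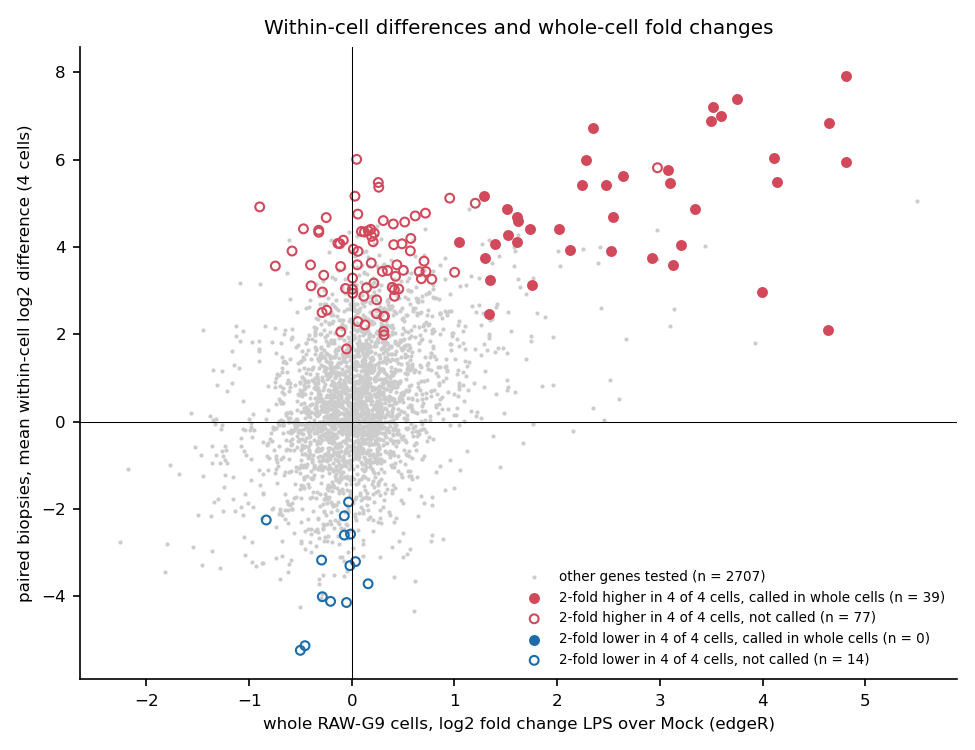
Mean within-cell difference in log2(CPM + 10) over 4 cells (y axis) against the whole-cell log2 fold change of LPS over Mock (x axis) for 2837 genes (grey). Genes apart in all 4 cells are coloured, filled where called in whole cells. Of the higher genes 39 are filled and lie at the right, and none of the 14 lower genes is filled.

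The once-sampled biopsies, fitted in the same way, gave 0 of 10403 genes (0%) at an edgeR adjusted p of 0.05, with 221 at an unadjusted p under 0.05 and 251 called by DESeq2. Of the genes higher in all 4 paired cells, 73 (62.9% of them) had a positive fold change in these biopsies, against 38.6% of all 2837 genes. An unadjusted p under 0.05 with a positive sign was found for 18 of these genes and for 47 of all 2837.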

How the data were processed

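The authors demultiplexed the reads with bcl2fastq 2.19.1, aligned them to mm10 with STAR 2.6.1c and counted them per gene with HTSeq without strand, and deposited raw counts per gene and library. No molecular identifiers were used, so intervals and floors cover counting error only. Of the columns of the count table, 448 RAW-G9 libraries were used and 564 were not. The table held 30452 features, 30340 of them in the annotation. As in the study, 90 ribosomal protein genes and the 20 genes that lead the negative controls were not used. CPM was computed from the kept counts, and within-cell differences as log2(CPM + 10), so that differences of low genes are understated. Genes that reached 2 counts in 4 or more of the paired libraries were tested, and 116 of these 2837 were at least 2-fold higher in all 4 cells.

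Groups were taken from the labels, with 157 Mock and 149 LPS whole-cell libraries. RAW cells sampled again whose mate is absent (3 libraries) entered no comparison. Pairing follows the extraction pair label, because both libraries come from the same cell. Deviations of same-cell libraries from their group means correlated at 0.016, -0.015, 0.037 and -0.026 over 2837 genes. Fits used R 4.3.3 with edgeR 4.0.16 (quasi-likelihood test, TMM, sums per batch and state with the batch as a block) and DESeq2 1.42.0 as an alternative, and were tested on simulated data. The smallest two-sided p of an exact sign-flip test over 4 pairs is 0.125. Python 3.11.15 with pandas 2.3.3, numpy 2.4.6 and matplotlib 3.10.9 did the rest. Once-sampled and whole-cell comparisons also required a change over 2-fold.

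Members and lists were chosen with earlier results of these data known. Named were Ccl3, Ccl4, Cxcl2, Tnf and Nfkbia, then the 15 genes with the largest mean rise and the 10 with the largest mean fall among those at least 2-fold apart in all 4 cells (predicted genes and pseudogenes left out), the 4 genes with the highest mean CPM in each list, and genes called by a test. Genes beyond this rule, such as EGFP, Rel, Relb, Nfkb2, Fos, Saa3, Mcm7 and Sod2 where it does not reach, were named after their values were seen. Without strand, reads of overlapping and antisense genes cannot be told apart, and counts of near-identical copies are uncertain. Promoter sequences are from RefSeq on GRCm38.p6.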

Additional observations from a re-analysis of the deposited data

Results flagged for a closer look

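In 67 groups of 4 values, 11 had a lowest or highest value set apart from the others by Dixon's criterion, which chance does for about 1 group in 20. Cell 3 had the smallest within-cell difference on the log2(CPM + 10) scale for Ccl4 (2.22), Ccl9 (2.81), Ptgs2 (3.81) and Icam1 (1.59). Ccl4, Ccl9 and Icam1 had counts before LPS in its first biopsy, and Ptgs2 was at 131 CPM in the second. Cell 4 had the smallest difference for Plek (2.08), and cell 1 the largest fall for Srsf10 (-6.04).

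Among list sums, the cytokines were lowest in cell 1 before LPS (559 CPM), G2 and mitosis genes lowest in cell 4 after LPS (170 CPM), and heat shock genes highest in cell 2 after LPS (16107 CPM). Mitochondrially encoded genes were lowest in the first biopsy of cell 2 (24.5 CPM), which was also the library with the fewest genes. Mesenchymal markers were counted in the second biopsy of cell 1 alone (7.06 CPM).

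The libraries of RAW cells sampled again whose mate is absent entered no comparison. The LPS library of this kind in batch 7 had 8276 CPM of Ccl3, 1411 of Ccl4, 894 of Cxcl2, 2825 of Tnf and 1250 of Nfkbia, each above the highest of 17 once-sampled Mock biopsies of that batch (1080, 311, 0, 886 and 880 CPM). Its Acod1 level of 11054 CPM was below their highest, 13092 CPM. The LPS library of this kind in batch 6 exceeded the highest of 8 Mock biopsies for Ccl4 (1741 against 483 CPM), but not for Ccl3, Cxcl2, Tnf, Nfkbia or Acod1.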

How the results depend on the processing

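Counts are given here as shares of the genes tested. The share at least 2-fold higher in all 4 cells (4.09%) became 3.13% (34 genes) with 2 counts required in 6 of 8 libraries, 8.92% with any size of difference, 21.2% in batch 7 alone and 10.6% in batch 9_4 alone, and 4.90% to 8.99% with 1 cell left out. The share lower in all 4 cells (0.493%) became 0.211% (6 genes) with a pseudocount of 50 CPM, 0.828% (9 genes) with the stricter filter, 1.97% with any size, 3.28% in batch 7 alone, 10.5% in batch 9_4 alone, 0.881% (25 genes) for groups that do not overlap without the replicate block, and 1.06% to 2.89% with 1 cell left out, the highest without cell 2. Requiring fewer cells gives more genes by construction. The count of 0 genes called between the biopsies became 5.32% with DESeq2, 0.0511% (5 genes) without a filter on low counts (Acod1, Ccl3, Ccl9, Ehd1 and Gm26917), and 0% to 0.211% with 1 cell left out: Ccl3 without cell 2, Acod1, Ccl3, Ccl4, Ccl9, Gm26917 and Nfkbia without cell 3, and Ccl3 and Plek without cell 4. With each library as a unit and the cell as replicate block it was 0.0705% (Acod1 and Ccl3), 9.09% with DESeq2, 0% with edgeR's newer fit, and 0.0352% to 0.0705% with 1 cell left out, the last 3 being added after the data were seen. For whole cells the share called (5.62%) became 10.4% with DESeq2, 9.63% with edgeR's newer fit, 1.03% without the replicate block, and 0.413% to 10.8% with 1 batch left out, the lowest without batch 9_1 and the highest without batch 8_8. For once-sampled biopsies 0 became 2.41% with DESeq2. The causes were not tested. Of 765 values of 85 named genes under the alternatives, 716 moved by less than 1 SD between cells and 49 moved by more, and all 30 named genes apart in all 4 cells kept their sign. With a cell left out or another pseudocount that sign could not change, because these genes were chosen for the same direction in each cell. For a gene at 0 in a biopsy, the floor of 3 counts in as few as 122643 kept counts covers counting error only.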
